A study of Mus musculus with 2 samples.

Results

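Type 1 conventional dendritic cells (cDC1) were examined in the non-parenchymal fraction of mouse liver, that is, immune, vessel-wall and connective tissue cells without hepatocytes, read cell by cell on the 10x Chromium droplet platform with 3' tags. The 2 libraries are 1 of the PKM2ΔMAC genotype (ΔMAC), named for a macrophage deletion of PKM2, and 1 of the PKM2FL/FL genotype (FL/FL), named for the floxed allele. All mice of both genotypes had eaten a methionine- and choline-deficient (MCD) diet for 8 weeks, so no healthy liver enters any comparison. PKM2 is a pyruvate kinase isoform made from the gene Pkm, and the series asks about that enzyme in macrophages during the scarring of fatty liver disease. The sources used here do not give the number of mice behind each library, their age and sex, or the promoter that drives Cre.

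Members were cells with at least 1 unique molecular identifier (UMI, 1 per captured transcript) of Xcr1 and Clec9a together, at least 10 UMIs of H2-Ab1, fewer than 2 of Fscn1, and 0 of Siglech, Cd79a and the CD3 genes. The rule found 50 cells in the ΔMAC library and 43 cells in the FL/FL library, 93 of 18867 cells in all. Members were thus chosen by the counts of these genes, which are given below as a description only.

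As background, cDC1 are the dendritic cells that specialise in taking up material from dying cells and presenting it on MHC class I to CD8 T cells, a process called cross-presentation. They depend on the transcription factors Irf8 and Batf3 and on the cytokine Flt3 ligand. In the liver they are a rare population beside the more numerous cDC2, which present mainly on MHC class II to CD4 T cells. The receptor Clec9a binds actin exposed by dead cells, and Xcr1 binds the chemokine Xcl1, which natural killer (NK) cells and activated T cells release.

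There were 8949 barcodes and 43134027 UMIs in the ΔMAC library, against 10054 barcodes and 54519921 UMIs in FL/FL. Members were deep cells. They held 659462 UMIs in the ΔMAC library, with 4422 to 28733 per cell and a median of 12582. They held 588501 UMIs in the FL/FL library, with 3120 to 28895 per cell and a median of 13179. The libraries shared 17 barcodes, none of them (0) among members. There was 1 library per genotype and no replicate, so no test between genotypes was possible, and every difference is a description of 2 libraries. Values in parentheses after a ratio are 95% intervals that cover counting error only.

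Members made up 0.563% of ΔMAC cells (50 of 8877, exact Clopper-Pearson interval 0.418 to 0.742%) and 0.430% of FL/FL cells (43 of 9990, interval 0.312 to 0.579%). The ratio of the shares was 1.31 (0.853 to 2.02), an interval that includes no difference. It was 2.31 (1.30 to 4.23) for members with more cDC1 than cDC2 markers, 39 in ΔMAC and 19 in FL/FL. With the rule applied to all cells thinned to 1500 UMIs, it was 0.657 (0.306 to 1.35), from 13 cells in ΔMAC and 23 in FL/FL. That setting asked for at least 3 H2-Ab1 UMIs and read the exclusions on thinned counts, so its cells need not be members. Neither the size nor the direction of the ratio held across these settings. Among the 3 conventional dendritic gates together, which add Cd209a-positive conventional dendritic cells (cDC) and mature Fscn1-positive cells, cDC1 took 50 of 142 cells (35.2%) in ΔMAC and 43 of 156 (27.6%) in FL/FL. The Cd209a-positive cDC were a near-equal share of both libraries, at 0.946% of ΔMAC cells and 0.981% of FL/FL cells. Plasmacytoid dendritic cells (pDC), the interferon-producing relatives, were 2.62% of ΔMAC cells and 1.36% of FL/FL cells. Fewer cells of a type and less captured RNA per cell cannot be told apart in such shares.

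Checked by the count of cDC1 against cDC2 marker genes, the label held for most ΔMAC members but not for most FL/FL members. Of 12 cDC1 markers outside the rule, the median member had a UMI of 8 in ΔMAC and of 6 in FL/FL. Of 15 cDC2 markers, the median member had 4 in ΔMAC and 7 in FL/FL. More cDC1 than cDC2 markers were detected in 39 of 50 ΔMAC members and in 19 of 43 FL/FL members. The other FL/FL members had as many cDC2 as cDC1 markers, or more of them.

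**Figure D1:**
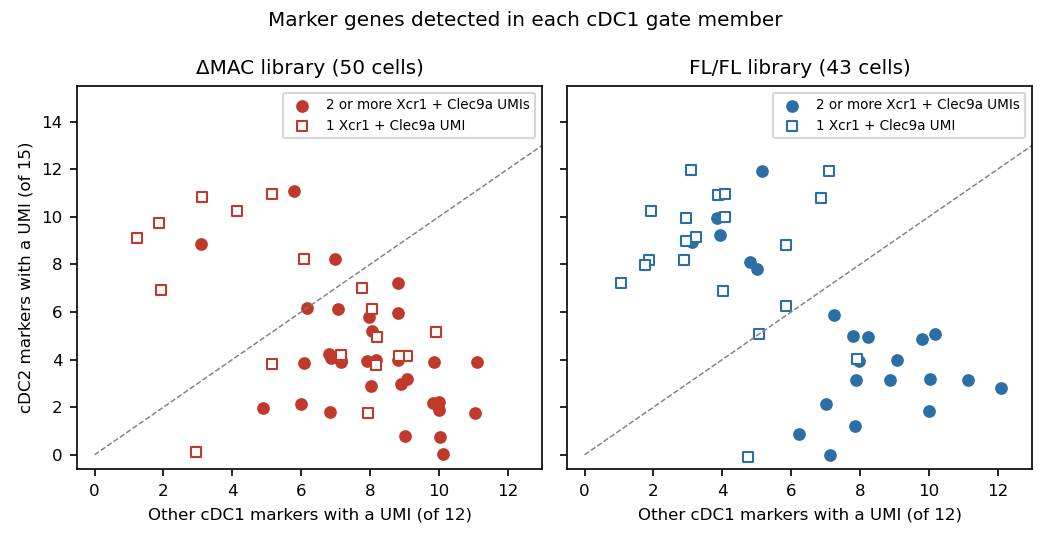
Number of cDC1 markers outside the rule with a UMI (x axis, of 12) against the number of cDC2 markers with a UMI (y axis, of 15) in each cDC1 gate member, slightly jittered, with ΔMAC left (50 cells) and FL/FL right (43 cells). Filled points are members with 2 or more Xcr1 and Clec9a UMIs and open squares members with 1; most open squares of FL/FL lie above the dashed line of equal numbers.

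Marker numbers differed on the 2 sides of the count threshold in the rule. A single Xcr1 or Clec9a UMI admitted 18 ΔMAC members and 20 FL/FL members. Single-UMI members had a median of 6.5 cDC1 and 5.5 cDC2 markers in ΔMAC, against 4 cDC1 and 9 cDC2 markers in FL/FL. Members with 2 or more UMIs, 32 in ΔMAC and 23 in FL/FL, had a median of 8 cDC1 and 4 cDC2 markers in both libraries. They were still not matched, as 4 of these ΔMAC members and 8 of these FL/FL members held a Cd209a UMI. Among them Cd209a stood at 64.1 CPM in ΔMAC and 134 CPM in FL/FL, and Sirpa at 6.63 CPM in ΔMAC and 20.4 CPM in FL/FL. Cells that met the rest of the rule with 0 UMIs of both genes, just outside the threshold, had a median of 2 cDC1 and 7 cDC2 markers in both libraries. At the other threshold, 1 cell in each library held 5 to 9 H2-Ab1 UMIs and lay just outside, while 2 ΔMAC members and 6 FL/FL members held 10 to 19. The part that cDC2-type cells play in the differences below was not tested, so values for members with 2 or more UMIs are given for the main lists and many genes beside those over all members.

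Markers of other cell types were present at unequal levels in the gate. Kupffer cell or macrophage markers (11 genes, including Clec4f and the C1q genes) summed to 5 UMIs over the ΔMAC members and 8 over the FL/FL members, and T cell markers to 7 and 11. The T cell list includes the CD3 genes, which the rule sets to 0, so its sum was partly fixed in advance. NK markers stood at 372 CPM in ΔMAC members and 974 CPM in FL/FL members, where CPM is UMIs per 1e+06 UMIs summed over the members. The defining NK receptor gene Ncr1 had 1 UMI in 1 ΔMAC member and 9 UMIs in 4 FL/FL members. The 14 cDC1 markers, which include Xcr1 and Clec9a of the rule, summed to 3427 CPM in ΔMAC and 2853 CPM in FL/FL. This cDC1 sum was higher in pDC, at 4289 CPM in ΔMAC and 4576 CPM in FL/FL. Monocyte markers, a list that includes Lyz2 and Ccr2, summed to 1639 CPM in ΔMAC members and 3490 CPM in FL/FL members. Within the monocyte sums, Lyz2 alone was 12.1 CPM in ΔMAC members and 1325 CPM in FL/FL members. Lyz2 was low in ΔMAC monocytes too, at 18.9 CPM against 16705 CPM in FL/FL monocytes, so these sums do not compare monocyte content. Scrublet, a doublet caller, marked 0 ΔMAC members and 1 FL/FL member, and all were kept.

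The surface receptors that chose the cells were themselves sparse. Xcr1 (chromosome 9) had 39 UMIs in 17 of 50 ΔMAC members and 19 UMIs in 7 of 43 FL/FL members. Clec9a (chromosome 6) had 93 UMIs in 45 ΔMAC members and 95 UMIs in 43 FL/FL members. In B cells, which should lack both, 0.0868% of ΔMAC and 0.0456% of FL/FL cells held an Xcr1 UMI, at median depths of 2806 and 3253 UMIs. A Clec9a UMI was held by 0.260% of ΔMAC and 0.319% of FL/FL B cells, but by 36.9% of ΔMAC pDC and 41.2% of FL/FL pDC.

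The transcription factors of the lineage were present in both libraries. Irf8, which drives cDC1 and pDC development, stood at 1274 CPM in ΔMAC members and 1072 CPM in FL/FL members. Batf3, its partner on cDC1 enhancers, had 147 UMIs in 44 ΔMAC members (223 CPM) and 75 UMIs in 29 FL/FL members (127 CPM), a ratio of 1.75 (1.32 to 2.34). Id2, which restrains E proteins and so the pDC fate, stood at 1386 CPM in ΔMAC and 952 CPM in FL/FL. Among members with 2 or more Xcr1 and Clec9a UMIs the ratios were nearer 1, at 0.891 for Irf8, 1.37 for Batf3 and 1.21 for Id2. Zeb2, which opposes Irf8 in dendritic progenitors, was lower in ΔMAC members, with 40 UMIs against 103 in FL/FL, a ratio of 0.347 (0.234 to 0.504) that was 0.516 among members with 2 or more UMIs and turned round, to a log2 ratio of 1.41, among members with more cDC1 than cDC2 markers.

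Genes of cDC1 function likewise differed with the members counted. Wdfy4, which is required for cross-presentation of cell-associated antigen, had 156 UMIs in ΔMAC (237 CPM) and 152 in FL/FL (258 CPM). Among members with 2 or more Xcr1 and Clec9a UMIs, Wdfy4 was 265 CPM in ΔMAC and 373 CPM in FL/FL. Flt3, the receptor for Flt3 ligand, had 99 UMIs in ΔMAC (150 CPM) and 119 in FL/FL (202 CPM), a ratio of 0.742 (0.563 to 0.977) that was 0.576 (0.412 to 0.802) among members with 2 or more UMIs. Tlr3, the receptor for double-stranded RNA, had 24 UMIs in ΔMAC and 30 in FL/FL. Cadm1, an adhesion molecule shared with pDC, had 67 UMIs in ΔMAC and 81 in FL/FL. Of the sparser markers, Itgae (CD103, an integrin of cDC1 in epithelial tissues) had 8 UMIs in ΔMAC and 3 in FL/FL, Gcsam 11 and 8, and Snx22 28 and 25. Cd8a, a marker of cDC1 in mouse lymphoid organs, had 2 UMIs in ΔMAC members and 1 in FL/FL members.

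Ifi205, an interferon-inducible gene of the AIM2-like receptor family, stood highest in cDC1 relative to the other dendritic gates among genes outside the rule with at least 50 CPM over both libraries' members. Below that level, Snx22 had 0 UMIs in all 3 of those gates. Ifi205 had 279 UMIs in 40 ΔMAC members (423 CPM) and 131 UMIs in 24 FL/FL members (223 CPM). Its ratio was 1.90 (1.54 to 2.36), and 1.59 (1.25 to 2.04) among members with 2 or more UMIs. Ifi205 was higher in ΔMAC in Cd209a-positive cDC too, at 65.7 CPM in ΔMAC and 24.7 CPM in FL/FL. In pDC it stood at 6.07 CPM in ΔMAC and 5.09 CPM in FL/FL. In B cells, 0.391% of ΔMAC and 0.410% of FL/FL cells held an Ifi205 UMI. Over both libraries its cDC1 level was 7.63 times or more that in Cd209a-positive cDC, mature dendritic cells and pDC. Its promoter window is shown because it holds an element that Irf proteins bind in interferon-inducible genes. The window covers 250 bases before to 50 after the RefSeq gene start (GRCm38.p6, chr1:174031706-174032005, minus strand), and capitals mark matches on either strand to GAAA, 2 bases of any kind and GAAA.

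Ifi205: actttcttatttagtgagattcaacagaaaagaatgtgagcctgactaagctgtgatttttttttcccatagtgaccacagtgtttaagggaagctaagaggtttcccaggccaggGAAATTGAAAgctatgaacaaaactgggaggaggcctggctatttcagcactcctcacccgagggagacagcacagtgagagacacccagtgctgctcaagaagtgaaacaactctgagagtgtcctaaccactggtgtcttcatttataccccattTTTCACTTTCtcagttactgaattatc

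That window holds 2 matches, while 3.49% of 27025 promoter windows of the same length hold at least 1. Of 14 cDC1 identity genes with a window, 2 hold the element (Ifi205 and Tlr11). The related element GGAA, 2 bases of any kind and GAAA, bound by Irf8 with PU.1, is in 0 of the 14 windows and in 2.79% of all windows. A match is a description of the letters and says nothing of binding.

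Several of the other genes that stood above their level in all 3 other dendritic gates act in endosomes and lysosomes. Naaa, a lysosomal amidase that breaks down acylethanolamides, was 7.55 times or more its level there, with 434 CPM in ΔMAC and 369 CPM in FL/FL. Among members with 2 or more Xcr1 and Clec9a UMIs, Naaa was 515 CPM in ΔMAC and 565 CPM in FL/FL. Ppt1, the lysosomal thioesterase that removes palmitate from proteins, was 4.41 times or more, with 340 CPM in ΔMAC and 206 CPM in FL/FL. The small GTPases Rab32 and Rab7b, which act in endosome and lysosome traffic, stood at 3.42 and 3.29 times their highest level there. Cxx1b, Cks1b, Cd24a, Ube2c, Trim35 and Mnda were also among the 12 genes so ranked, of which Cks1b and Ube2c belong to the cell cycle.

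**Figure D2:**
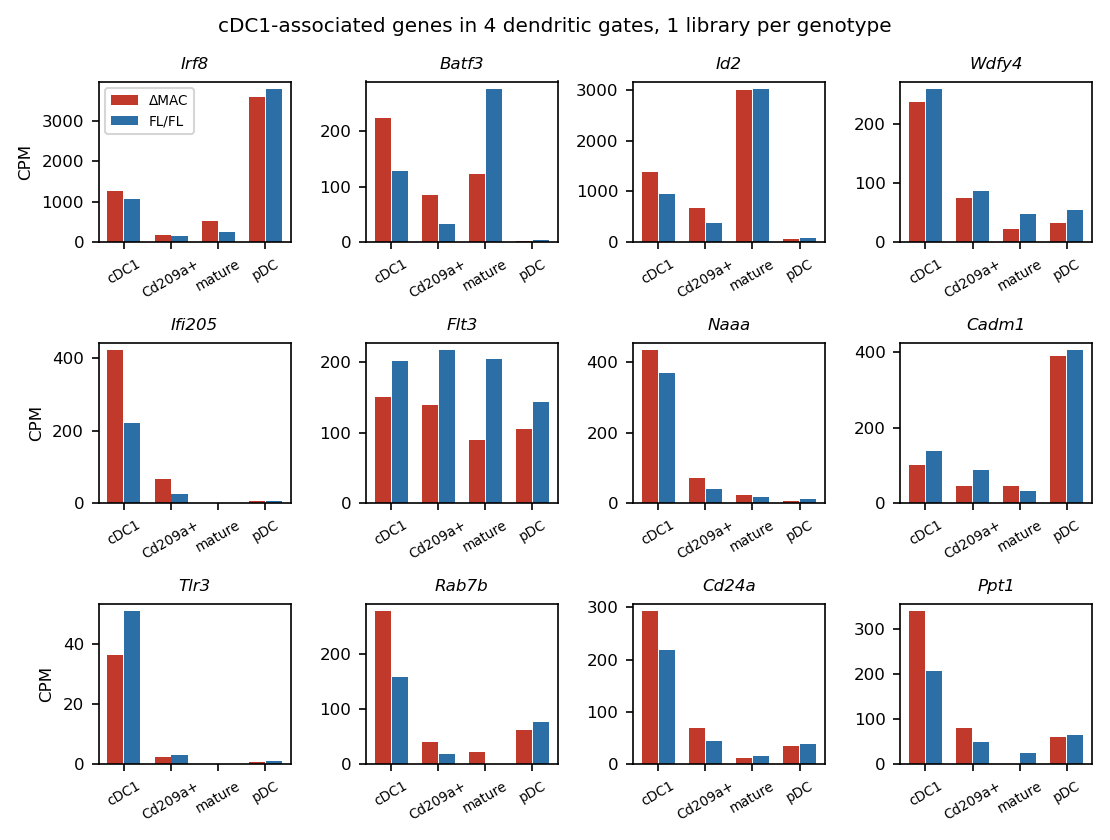
Levels (CPM, linear axis) of 12 genes linked to cDC1 in the gates cDC1, Cd209a-positive cDC, mature dendritic cells and plasmacytoid dendritic cells (pDC), with the ΔMAC bar left of the FL/FL bar, 1 library each and no error bars. Ifi205, Naaa, Rab7b, Cd24a and Ppt1 stood highest in cDC1, while Irf8 and Cadm1 stood higher in pDC.

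Pkm, the targeted gene (chromosome 9, 59656368 to 59679375, mm10), had 123 UMIs in 43 of 50 ΔMAC members (187 CPM) and 203 UMIs in 39 of 43 FL/FL members (345 CPM). The ratio was 0.541 (0.429 to 0.680) over all members and 0.630 (0.465 to 0.851) among those with 2 or more Xcr1 and Clec9a UMIs. Pkm RNA was thus detected in most members of both libraries. The tags come from the 3' end of the transcript, which may lie outside the deleted part, so they do not show whether the locus was recombined in these cells. Pkm was also lower in ΔMAC in B cells (ratio 0.686), monocytes (0.621) and pDC (0.619), and its ratio was 0.905 in Cd209a-positive cDC.

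Lyz2, the lysozyme gene of myeloid cells, had 8 UMIs in 3 of 50 ΔMAC members (12.1 CPM) and 780 UMIs in 41 of 43 FL/FL members (1325 CPM). In B cells, which should lack it, the level was 1.08 CPM in ΔMAC and 393 CPM in FL/FL, and the part of free RNA in the members' counts was not tested. The level in FL/FL members was 522 CPM among those with 2 or more Xcr1 and Clec9a UMIs.

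Across the gate, 5841 genes had at least 20 UMIs over both libraries and are called measured. Of these, 531 (9.09%) were at least 1.5-fold higher in ΔMAC and 989 (16.9%) at least 1.5-fold lower, and the median log2 ratio was -0.09. The list counts below are read against these shares. Among members with 2 or more Xcr1 and Clec9a UMIs the shares were 10.3% higher and 18.4% lower, and among those with more cDC1 than cDC2 markers 12.2% higher and 17.4% lower. Of 18 measured cDC1 identity genes outside the rule, 6 were at least 1.5-fold higher in ΔMAC and 0 lower over all members, with a median log2 ratio of 0.28. In members with 2 or more UMIs 2 of 16 were higher and 3 lower, with a median of -0.17. In Cd209a-positive cDC, 7 of 13 measured identity genes were higher and 3 lower, with a median of 0.68. There 8.78% of all measured genes were higher and 16.6% lower. In pDC 0 of 11 identity genes were higher and 2 lower, with a median of -0.29, against 8.61% and 12.5% of all measured genes. Among the 1475 genes with at least 50 UMIs and 100 CPM, 57 (3.86%) were at least 2-fold apart, 15 of them higher in ΔMAC (1.02%) and 42 lower (2.85%).

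The 12 genes ranked highest in ΔMAC include 3 G protein-coupled receptors. Gpr183, a receptor for oxysterols that positions dendritic cells, had 88 UMIs in 33 ΔMAC members (133 CPM) and 30 UMIs in 19 FL/FL members (51.0 CPM), a ratio of 2.62 (1.71 to 4.11). P2ry14, a receptor for UDP-glucose, had a ratio of 2.56 (1.57 to 4.31), with 66 UMIs in ΔMAC and 23 in FL/FL. Gpr171, an orphan receptor by origin, had 121 UMIs in ΔMAC and 40 in FL/FL, a ratio of 2.70 (1.87 to 3.96). In members with 2 or more Xcr1 and Clec9a UMIs the ratios were 2.51 for Gpr183, 1.81 for P2ry14 and 2.30 for Gpr171. Cxcr4, the receptor for Cxcl12, stood lower in this order at 343 CPM in ΔMAC and 202 CPM in FL/FL, a ratio of 1.69 (1.35 to 2.13).

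The same 12 genes include 2 transcription regulators. Jdp2, a repressor that pairs with AP-1 proteins, had 213 UMIs in 38 ΔMAC members (323 CPM) and 72 UMIs in 23 FL/FL members (122 CPM), a ratio of 2.64 (2.01 to 3.50). Ahr, the aryl hydrocarbon receptor, had 127 UMIs in 35 ΔMAC members and 46 UMIs in 16 FL/FL members, a ratio of 2.46 (1.75 to 3.53). Both were higher in ΔMAC among members with 2 or more UMIs too, at ratios of 2.31 for Jdp2 and 2.02 for Ahr. Gcnt2, an enzyme that branches glycans, had a ratio of 2.40 (1.81 to 3.22), Cox17, a copper chaperone of cytochrome oxidase, 2.29 (1.46 to 3.69), and Sarnp, a nuclear RNA-binding protein, 2.11 (1.36 to 3.35).

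A few of these values rest on single cells or are matched by differences in other gates. Rgs1, a brake on chemokine receptor signalling, had 157 UMIs in ΔMAC and 31 in FL/FL, but 1 ΔMAC cell held 56.1% of the ΔMAC UMIs. Hilpda, a lipid droplet protein, had 79 UMIs in ΔMAC and 30 in FL/FL, with 74.7% of the ΔMAC UMIs in 1 cell. Erdr1, which the annotation places on chromosome Y, was 173 CPM in ΔMAC members and 69.7 CPM in FL/FL members, and 211 CPM in ΔMAC B cells against 64.7 CPM in FL/FL B cells. Tmsb4x, an actin-binding peptide, was 39722 CPM in ΔMAC members and 19745 CPM in FL/FL members, and in B cells it was 16082 CPM in ΔMAC and 7961 CPM in FL/FL.

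The 12 genes ranked lowest in ΔMAC include the chemokines Cxcl9, Ccl9 and Cxcl10 and the NF-κB target Tnfaip3, which are given with their groups below. Cybb, the catalytic subunit of the phagocyte NADPH oxidase, had 50 UMIs in 14 ΔMAC members (75.8 CPM) and 225 UMIs in 28 FL/FL members (382 CPM), a ratio of 0.198 (0.143 to 0.270). In members with 2 or more UMIs it was 0.341 (0.196 to 0.574). Cybb stood at 532 CPM in ΔMAC and 872 CPM in FL/FL in Cd209a-positive cDC, above its level in cDC1 of either library. Fyb, an adaptor of integrin signalling, had 30 UMIs in ΔMAC and 74 in FL/FL, but its ratio was 0.854 (0.411 to 1.79) among members with 2 or more UMIs, and its log2 ratio 0.41 among members with more cDC1 than cDC2 markers. Tmem176b, an ion channel protein of dendritic cells, had a ratio of 0.402 (0.278 to 0.575) over all members and 0.759 (0.355 to 1.62) among those with 2 or more UMIs.

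Other genes of the 12 stood as low among members with 2 or more UMIs. Arl5c, an ARF-like small GTPase, had 37 UMIs in ΔMAC and 110 in FL/FL over all members, a ratio of 0.300 (0.201 to 0.439), and 0.345 (0.174 to 0.653) in those with 2 or more. Med13l, a subunit of the Mediator kinase module, had 41 UMIs in 25 ΔMAC members and 93 UMIs in 37 FL/FL members, a ratio of 0.393 (0.266 to 0.574), and 0.379 in those with 2 or more. Rbfa, a mitochondrial ribosome assembly factor, had ratios of 0.403 over all members and 0.404 in those with 2 or more.

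**Figure D3:**
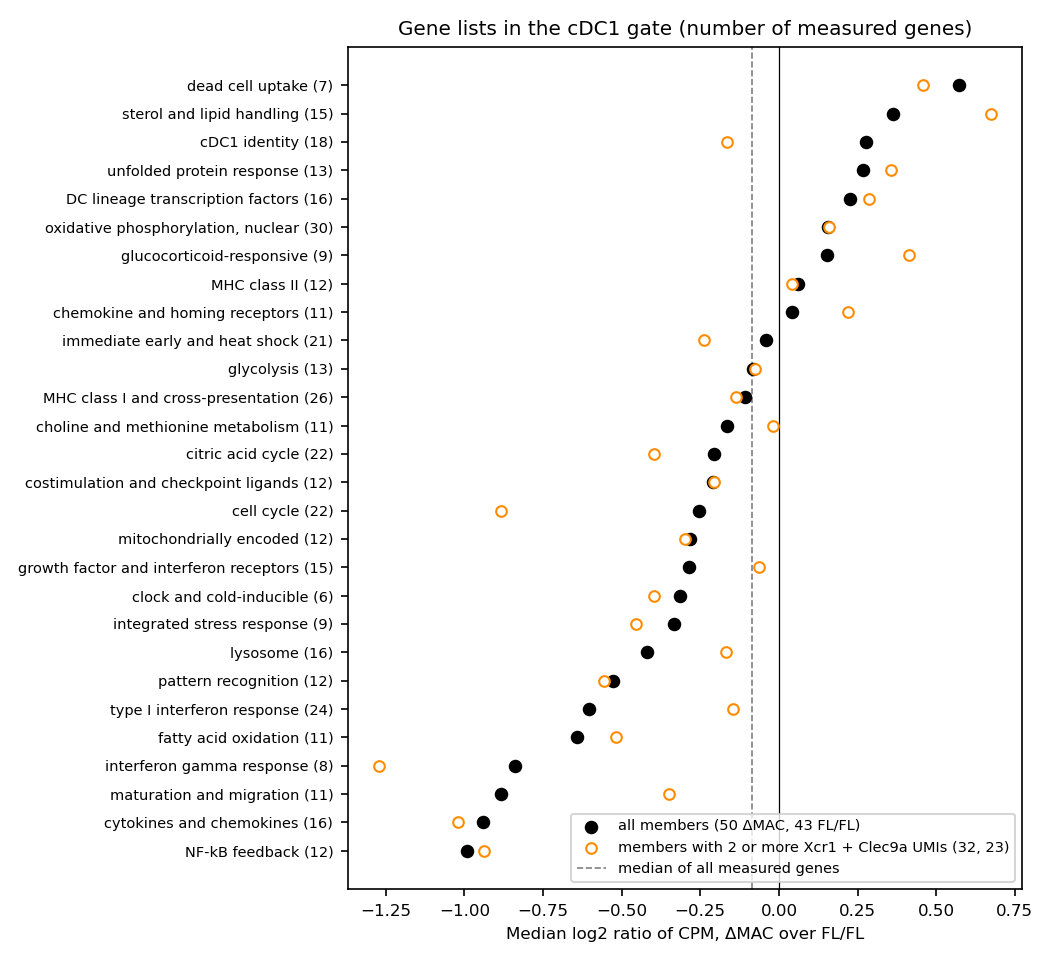
Median log2 ratio of CPM, ΔMAC over FL/FL (x axis), of 28 gene lists in the cDC1 gate, with the number of measured genes beside each name. Filled points are all members (50 ΔMAC and 43 FL/FL cells), open points members with 2 or more Xcr1 and Clec9a UMIs (32 and 23), and the dashed line is the median of all measured genes. Among filled points NF-κB feedback genes and cytokines and chemokines lie lowest in ΔMAC. Among open points interferon gamma response genes lie lowest, and the type I interferon and maturation lists lie nearer 0 than their filled points.

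NF-κB feedback genes, which the transcription factor NF-κB induces and which in turn restrain it, were lower in ΔMAC members. Of 12 measured genes, 8 were at least 1.5-fold lower and 0 higher, against 16.9% and 9.09% of all measured genes, and the median log2 ratio was -0.99. Nfkbia, which holds NF-κB in the cytoplasm, had 462 UMIs in 47 ΔMAC members (701 CPM) and 769 UMIs in 40 FL/FL members (1307 CPM), a ratio of 0.536 (0.477 to 0.602). Tnfaip3 (A20, a ubiquitin-editing brake) had 56 UMIs in 20 ΔMAC members (84.9 CPM) and 160 UMIs in 32 FL/FL members (272 CPM), a ratio of 0.312 (0.226 to 0.426). Nfkbiz, a nuclear IκB protein, was 171 CPM in ΔMAC and 364 CPM in FL/FL, a ratio of 0.471 (0.372 to 0.595).

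Other NF-κB feedback genes named here also stood lower in ΔMAC, though not all of them by 1.5-fold. Bcl3, another nuclear IκB protein, had 27 UMIs in ΔMAC and 55 in FL/FL, Birc3, an inhibitor of apoptosis, 33 and 69, and Tnip1, which works with A20, 5 and 17. Among the NF-κB subunits, Relb had 17 UMIs in ΔMAC and 38 in FL/FL, Rel 193 and 231, and Nfkb1 143 and 176. In members with 2 or more Xcr1 and Clec9a UMIs, 8 of 9 measured genes were lower and the median log2 ratio was -0.94, while in members with more cDC1 than cDC2 markers 5 of 10 were lower and it was -0.52. Per cell, the list took 0.0226 to 0.744% of UMIs in ΔMAC members (median 0.120%) and 0.0307 to 0.938% in FL/FL members (median 0.248%), and the ranges overlapped throughout.

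The list also had medians below 0 in other gates, where 8.78% of measured genes were higher and 16.6% lower in Cd209a-positive cDC, 8.61% and 12.5% in pDC, and 7.7% and 14.8% in monocytes. Its median log2 ratio was -0.46 in Cd209a-positive cDC, with 3 of 12 genes lower, -0.43 in pDC, with 3 of 12 lower, and -0.35 in monocytes, with 5 of 12 lower. Nfkbia stood at 1554 CPM in ΔMAC and 2129 CPM in FL/FL in Cd209a-positive cDC, and at 439 CPM in ΔMAC and 768 CPM in FL/FL in B cells.

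Promoter windows of the NF-κB feedback genes Nfkbia and Tnfaip3 and of the chemokine gene Cxcl10 are shown because they carry matches to the NF-κB site, searched as GGGA, 4 bases of any kind and CC, in capitals for either strand (RefSeq, GRCm38.p6, all on the minus strand). Nfkbia lies at chr12:55492598-55492897, Tnfaip3 at chr10:19015361-19015660 and Cxcl10 at chr5:92348840-92349139.

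Nfkbia: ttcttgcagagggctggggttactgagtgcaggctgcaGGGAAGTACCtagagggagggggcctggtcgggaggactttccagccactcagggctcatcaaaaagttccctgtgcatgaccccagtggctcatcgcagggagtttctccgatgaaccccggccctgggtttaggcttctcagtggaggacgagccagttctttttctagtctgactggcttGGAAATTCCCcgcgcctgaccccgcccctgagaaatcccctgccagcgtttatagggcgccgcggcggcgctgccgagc
Tnfaip3: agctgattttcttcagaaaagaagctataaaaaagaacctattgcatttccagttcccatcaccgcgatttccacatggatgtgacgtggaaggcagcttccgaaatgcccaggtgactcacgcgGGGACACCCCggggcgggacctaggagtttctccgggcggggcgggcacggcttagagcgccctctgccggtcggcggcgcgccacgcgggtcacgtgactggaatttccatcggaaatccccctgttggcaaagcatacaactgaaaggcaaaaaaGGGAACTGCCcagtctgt
Cxcl10: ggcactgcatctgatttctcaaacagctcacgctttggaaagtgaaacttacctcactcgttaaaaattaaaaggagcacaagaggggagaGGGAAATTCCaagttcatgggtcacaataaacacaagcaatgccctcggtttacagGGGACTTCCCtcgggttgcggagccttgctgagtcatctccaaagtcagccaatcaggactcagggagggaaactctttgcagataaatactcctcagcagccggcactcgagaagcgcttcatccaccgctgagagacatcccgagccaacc

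Each of the 3 windows holds 2 matches, and that of Cxcl10 also holds the interferon element described for Ifi205, not capitalised here. Of 9 NF-κB feedback genes with a window, 8 hold at least 1, against 20.5% of all 27025 windows and 26.1% of the windows of measured genes. Of 12 cytokine and chemokine genes with a window, 7 hold at least 1.

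**Figure D4:**
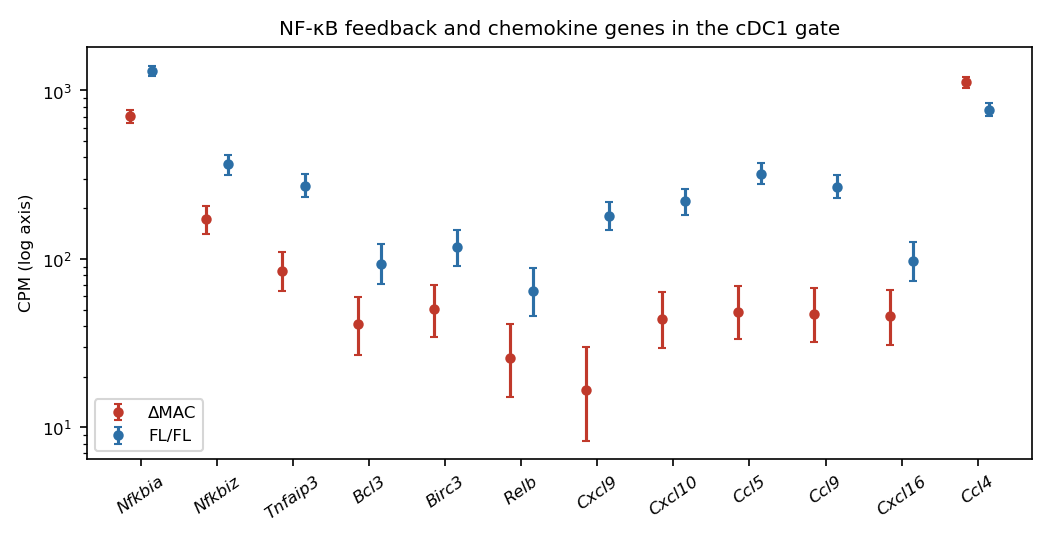
Levels (CPM, log axis) of 6 NF-κB feedback genes and 6 chemokines summed over cDC1 gate members, with the ΔMAC point left of the FL/FL point for each gene, 1 library each. Bars are exact Poisson 95% intervals of counting error; all genes shown except Ccl4 stood lower in ΔMAC.

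The list of cytokines and chemokines was also lower in ΔMAC members, while Ccl4 and, outside that list, Ccl17 stood higher. Of 16 measured cytokines and chemokines, 10 were at least 1.5-fold lower in ΔMAC and 0 higher, and the median log2 ratio was -0.94 (-1.02 in members with 2 or more UMIs). In members with more cDC1 than cDC2 markers, 5 of 10 were lower and 1 higher, and the median was -0.54. Cxcl9, which draws CXCR3-bearing T cells, had 11 UMIs in 3 ΔMAC members (16.7 CPM) and 106 UMIs in 7 FL/FL members (180 CPM), a ratio of 0.0926 (0.0449 to 0.173). Cxcl10, a ligand of the same receptor, had 29 UMIs in 5 ΔMAC members (44.0 CPM) and 129 UMIs in 11 FL/FL members (219 CPM), a ratio of 0.201 (0.129 to 0.302). Both came from few cells, and 1 FL/FL cell held 36.8% of the Cxcl9 UMIs and 1 held 42.6% of the Cxcl10 UMIs of that library.

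Ccl9, a chemokine of myeloid cells, was more widely spread. It had 31 UMIs in 9 ΔMAC members (47.0 CPM) and 158 UMIs in 27 FL/FL members (268 CPM), a ratio of 0.175 (0.115 to 0.259). Ccl5 had 32 UMIs in ΔMAC and 189 in FL/FL, but 40.2% of the FL/FL UMIs came from 1 cell and the gene is abundant in NK and T cells. Cxcl16, the membrane-bound ligand of CXCR6, had 30 UMIs in ΔMAC (45.5 CPM) and 57 in FL/FL (96.9 CPM), a ratio of 0.470 (0.291 to 0.743). Ccl4, a chemokine that draws T cells and monocytes, was 1116 CPM in ΔMAC and 770 CPM in FL/FL, a ratio of 1.45 (1.29 to 1.63), and 1.62 among members with 2 or more UMIs. Il1b was abundant in both, with 825 UMIs in ΔMAC and 883 in FL/FL.

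Interleukin 12, the cytokine by which cDC1 prime type 1 immunity, was barely detected. Its subunit gene Il12b had 3 UMIs in 1 ΔMAC member and 0 in FL/FL, and Il12a had 0 in both libraries. Il6 had 3 UMIs in ΔMAC and 17 in FL/FL, and Tnf 23 and 36. The list of cytokines and chemokines behaved otherwise in neighbouring gates, with median log2 ratios of -0.13 in Cd209a-positive cDC and 0.26 in pDC.

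**Figure D5:**
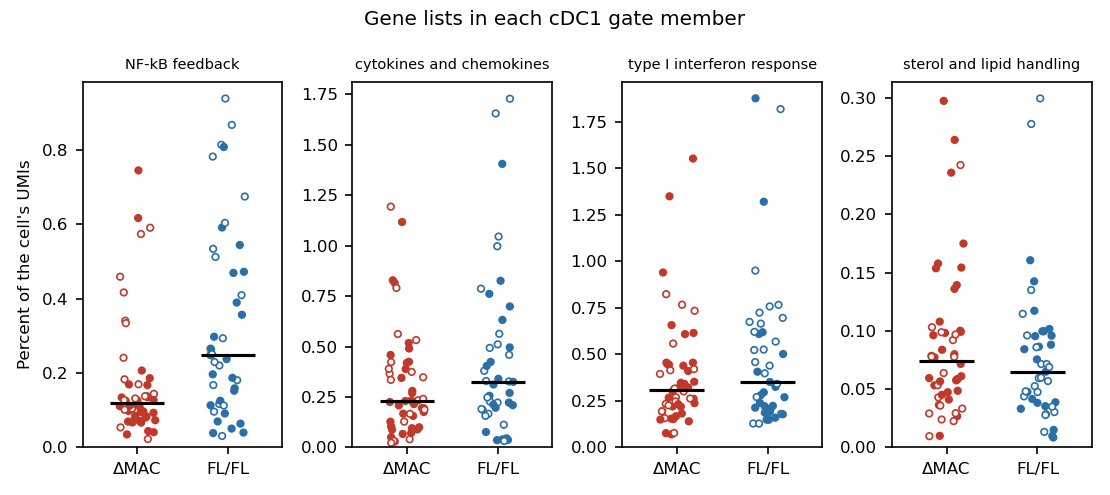
Share of each member's UMIs (y axis, percent) in 4 gene lists, with ΔMAC left of FL/FL in each panel. Filled points are members with 2 or more Xcr1 and Clec9a UMIs, open points members with 1, and lines are medians; the medians were 0.120% in ΔMAC and 0.248% in FL/FL for NF-κB feedback, and the points of the 2 libraries overlap in all 4 panels.

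Interferon gamma response genes were lower in ΔMAC members, with 5 of 8 measured genes at least 1.5-fold lower, 0 higher and a median log2 ratio of -0.84. Among members with 2 or more UMIs 4 of 7 were lower and the median was -1.27. The list was lower in other gates too, with 8 of 12 genes lower and a median of -0.73 in Cd209a-positive cDC, and 10 of 15 lower and a median of -0.69 in monocytes. Irf1, a transcription factor at the head of this response, had 96 UMIs in 30 ΔMAC members (146 CPM) and 139 UMIs in 33 FL/FL members (236 CPM), a ratio of 0.616 (0.470 to 0.805). Among members with 2 or more Xcr1 and Clec9a UMIs it was 0.215 (0.136 to 0.329). Gbp2, a guanylate-binding protein, had 2 UMIs in 2 ΔMAC members and 51 UMIs in 5 FL/FL members. Socs1, which dampens interferon receptors, had 6 UMIs in ΔMAC and 29 in FL/FL. Ifng itself was measured in T cells at 145 CPM in ΔMAC and 255 CPM in FL/FL, and in NK cells at 505 CPM in ΔMAC and 411 CPM in FL/FL.

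The type I interferon response gave a less settled picture. Over all members 12 of 24 measured genes were lower and 0 higher, with a median log2 ratio of -0.61, but among members with 2 or more UMIs 6 of 21 were lower and 2 higher, with a median of -0.15. Ifit1, a sensor of foreign RNA, had 0 UMIs in ΔMAC members and 53 in 9 FL/FL members, at least 19.8-fold lower in ΔMAC when its 0 UMIs are set to a floor of 3 counts over the gate. Rsad2 (viperin) had 11 UMIs in 3 ΔMAC members and 43 UMIs in 13 FL/FL members, a ratio of 0.228 (0.106 to 0.450). Isg15, a ubiquitin-like protein, had 50 UMIs in ΔMAC and 73 in FL/FL over all members, and equal levels of 99.5 CPM in ΔMAC and 99.1 CPM in FL/FL in those with 2 or more. Ifitm3 was 1765 CPM in ΔMAC and 1859 CPM in FL/FL over all members, and 1579 CPM in ΔMAC and 1099 CPM in FL/FL in those with 2 or more.

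Those interferon values sit beside an opposite reading in pDC, where 11 of 22 measured type I genes were higher in ΔMAC and 0 lower, with a median log2 ratio of 0.63. In Cd209a-positive cDC the median was -0.07. Of 17 type I interferon genes with a promoter window, 10 hold the interferon element shown above for Ifi205.

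Maturation and migration genes, which dendritic cells switch on when they leave tissue for lymph nodes, were lower in ΔMAC over all members, with 7 of 11 measured lower, 1 higher and a median log2 ratio of -0.88. In members with 2 or more UMIs 4 of 9 were lower and the median was -0.35. Several genes of the list are NF-κB targets counted above as well. Ccr7, the receptor that guides migration, had 8 UMIs in 6 ΔMAC members and 68 UMIs in 9 FL/FL members, with 64.7% of the FL/FL UMIs in 1 cell. Ccl17 had 51 UMIs in 3 ΔMAC members, 58.8% of them in 1 cell, and 0 UMIs in FL/FL. Both values rest on few cells. Traf1, a signalling adaptor, was more evenly spread, with 105 UMIs in 31 ΔMAC members (159 CPM) and 173 UMIs in 31 FL/FL members (294 CPM), a ratio of 0.542 (0.421 to 0.694), and 0.784 in those with 2 or more.

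Of 12 measured costimulation and checkpoint genes, 1 was higher and 4 lower, 33.3% against 16.9% of all measured genes, with a median log2 ratio of -0.21. With 2 or more Xcr1 and Clec9a UMIs, 1 of 11 was higher and 4 lower. Cd83, which stabilises MHC class II at the surface, was 654 CPM in ΔMAC and 585 CPM in FL/FL, and Cd86, a ligand of CD28, was 103 CPM in ΔMAC and 98.6 CPM in FL/FL. Icam1, an adhesion ligand for T cells, had 52 UMIs in ΔMAC (78.9 CPM) and 86 in FL/FL (146 CPM), a ratio of 0.540 (0.375 to 0.770), and 0.263 (0.142 to 0.465) among members with 2 or more UMIs. Havcr2 (TIM-3), an inhibitory receptor that cDC1 carry, had 48 UMIs in 29 ΔMAC members and 20 UMIs in 13 FL/FL members, a ratio of 2.14 (1.25 to 3.81).

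Antigen presentation genes were at similar levels in both libraries. Of 12 measured MHC class II genes outside the rule, 1 was higher and 0 lower, and the median log2 ratio was 0.06. The class II chain gene H2-Aa was 7831 CPM in ΔMAC and 7541 CPM in FL/FL, a ratio of 1.04 (0.997 to 1.08), and the invariant chain gene Cd74 had a ratio of 0.961. Of 26 MHC class I and cross-presentation genes, 1 was higher and 2 lower, with a median of -0.11. Cybb, with the ratio of 0.198 given above, was 1 of the 2 lower genes. With 2 or more Xcr1 and Clec9a UMIs, 1 of 24 was higher and 6 lower, with a median of -0.14. The shares of all measured genes there were 10.3% higher and 18.4% lower. Tap1, which pumps peptides into the endoplasmic reticulum, was 170 CPM in ΔMAC and 251 CPM in FL/FL, a ratio of 0.675 (0.524 to 0.869), and Tapbpl, a peptide editor, had 39 UMIs in ΔMAC and 16 in FL/FL.

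Of 15 measured growth factor and interferon receptors, 1 was higher and 5 lower, with a median log2 ratio of -0.29. Counted over members with 2 or more UMIs, 3 of 12 were higher and 2 lower, with a median of -0.06. The higher gene, Ifngr1, the interferon gamma receptor chain, was 356 CPM in ΔMAC and 224 CPM in FL/FL, a ratio of 1.59 (1.28 to 1.98), and it was 1.57 in members with 2 or more UMIs. Csf1r, a monocyte and macrophage receptor, had 38 UMIs in ΔMAC and 68 in FL/FL over all members, and 19 UMIs in ΔMAC and 6 in FL/FL in those with 2 or more. Ccr2, by which monocytes and some dendritic cells enter the liver, was 305 CPM in ΔMAC and 590 CPM in FL/FL, a ratio of 0.517 (0.432 to 0.617), and 0.547 in those with 2 or more. Of 12 measured pattern recognition genes, 1 was higher and 5 lower, with a median log2 ratio of -0.53 that was -0.56 with 2 or more UMIs. Xcl1, the ligand of Xcr1, was 1316 CPM in ΔMAC NK cells and 754 CPM in FL/FL NK cells, a ratio of 1.75.

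Members of the sterol and lipid handling list stood on both sides. Of 15 measured sterol and lipid handling genes, 6 were at least 1.5-fold higher and 3 lower, with a median log2 ratio of 0.36, and in members with 2 or more UMIs 6 of 11 were higher and 1 lower, with a median of 0.68. Fdps, the farnesyl diphosphate synthase, had 79 UMIs in 29 ΔMAC members (120 CPM) and 29 UMIs in 11 FL/FL members (49.3 CPM), a ratio of 2.43 (1.57 to 3.86). Hmgcs1, an early enzyme of cholesterol synthesis, had 40 UMIs in 14 ΔMAC members (60.7 CPM) and 14 UMIs in 12 FL/FL members (23.8 CPM), a ratio of 2.55 (1.36 to 5.07). Srebf2, the transcription factor that drives the pathway, had 75 UMIs in 41 ΔMAC members and 36 UMIs in 22 FL/FL members, a ratio of 1.86 (1.23 to 2.85). With 2 or more Xcr1 and Clec9a UMIs the ratios were 2.31 for Fdps, 3.51 for Hmgcs1 and 2.23 for Srebf2.

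Idi1, an isomerase of isoprenoid synthesis, had 41 UMIs in ΔMAC and 18 in FL/FL, and Scd2, a fatty acid desaturase, had 37 in ΔMAC and 14 in FL/FL. Plin2, which coats lipid droplets, had 38 UMIs in 23 ΔMAC members (57.6 CPM) and 89 UMIs in 30 FL/FL members (151 CPM), a ratio of 0.381 (0.253 to 0.563). Fabp5, a fatty acid carrier, had 7 UMIs in ΔMAC and 18 in FL/FL, and Apoe 12 and 24. In neighbouring gates the sterol and lipid list had other medians, -0.46 in Cd209a-positive cDC and -0.97 in pDC, and Hmgcs1 was 35.3 CPM in ΔMAC pDC and 132 CPM in FL/FL pDC.

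The Hmgcs1 promoter window is shown because it holds the sterol regulatory motif TCACNCCAC, searched on both strands and in capitals (RefSeq, GRCm38.p6, chr13:119690101-119690400, plus strand). Of 9 genes of the list with a window it is the 1 with a match, and 1.22% of all windows hold one. The window also holds an NF-κB match that is not capitalised.

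Hmgcs1: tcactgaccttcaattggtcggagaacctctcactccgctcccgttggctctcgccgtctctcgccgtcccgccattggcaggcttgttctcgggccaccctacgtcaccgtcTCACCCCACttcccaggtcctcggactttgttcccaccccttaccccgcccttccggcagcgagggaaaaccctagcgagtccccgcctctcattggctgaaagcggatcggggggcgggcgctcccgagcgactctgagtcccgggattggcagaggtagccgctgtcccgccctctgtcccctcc

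Glycolysis, the pathway that Pkm ends, differed little beyond Pkm. Of 13 other measured genes, 0 were higher and 2 lower by 1.5-fold, with a median log2 ratio of -0.08. Eno1, the enolase just before pyruvate kinase, was 102 CPM in ΔMAC and 168 CPM in FL/FL, a ratio of 0.604 (0.436 to 0.832), Gapdh was 963 CPM in ΔMAC and 1234 CPM in FL/FL, and Ldha was 438 CPM in ΔMAC and 420 CPM in FL/FL. Nuclear genes of oxidative phosphorylation had a median of 0.16, with 1 of 30 higher and 0 lower, and mitochondrially encoded genes one of -0.28, with 0 of 12 higher and 1 lower. Fatty acid oxidation genes had 6 of 11 lower and 1 higher, with a median of -0.64, and 3 of 9 lower with a median of -0.52 with 2 or more UMIs. The gene that was higher there was Acadl, the long-chain acyl-CoA dehydrogenase, with 116 UMIs in ΔMAC (176 CPM) and 54 in FL/FL (91.8 CPM), a ratio of 1.92 (1.38 to 2.70).

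Choline and methionine genes, of interest on this diet, had 2 of 11 higher and 0 lower. The higher pair were Pcyt2, an enzyme of phosphatidylethanolamine synthesis, with 23 UMIs in ΔMAC and 9 in FL/FL, and Slc3a2, the heavy chain of amino acid transporters, with 121 UMIs in 41 ΔMAC members (183 CPM) and 54 UMIs in 28 FL/FL members (91.8 CPM). Unfolded protein response genes had 3 of 13 higher and 0 lower, with a median log2 ratio of 0.27, and 4 of 13 higher with a median of 0.36 with 2 or more UMIs. Among them Manf, a secreted chaperone-like factor, was 194 CPM in ΔMAC and 109 CPM in FL/FL, a ratio of 1.78 (1.31 to 2.45), and Dnajc3 was 129 CPM in ΔMAC and 79.9 CPM in FL/FL.

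Genes for taking up dead cells were few, with 7 measured, 3 higher and 2 lower. Dnase1l3, a secreted nuclease that digests DNA of dying cells, had 22 UMIs in 11 ΔMAC members and 8 UMIs in 3 FL/FL members, with 11 of the 22 in 1 ΔMAC cell and 6 of the 8 in 1 FL/FL cell. Lysosomal genes had 2 of 16 higher and 6 lower, with a median of -0.42 that was -0.17 in members with 2 or more UMIs. Cst3, a cysteine protease inhibitor abundant in dendritic cells, was 12879 CPM in ΔMAC and 6523 CPM in FL/FL, a ratio of 1.97 (1.90 to 2.05), and 1.49 among members with 2 or more UMIs. Of 9 measured glucocorticoid-responsive genes, 4 were higher and 1 lower, and with 2 or more UMIs 3 of 6 were higher and 0 lower. Among them Fkbp5, a glucocorticoid-induced chaperone partner, had 52 UMIs in 30 ΔMAC members (78.9 CPM) and 14 UMIs in 12 FL/FL members (23.8 CPM), a ratio of 3.31 (1.81 to 6.48), and it stood at 84.0 CPM in ΔMAC and 25.7 CPM in FL/FL in Cd209a-positive cDC and at 53.4 CPM in ΔMAC and 23.7 CPM in FL/FL in B cells.

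Some members held transcripts of cell division. With 2 or more UMIs over Mki67, Top2a, Birc5, Cenpf and Ube2c as the mark, 5 of 50 ΔMAC members (10.0%, interval 3.33 to 21.8%) and 9 of 43 FL/FL members (20.9%, interval 10.0 to 36.0%) were cycling. The intervals overlap. Over all members 6 of 22 measured cell cycle genes were lower in ΔMAC and 0 higher, with a median log2 ratio of -0.25. With 2 or more Xcr1 and Clec9a UMIs 14 of 21 were lower, with a median of -0.88. Without cycling members 3 of 8 measured genes were higher and 0 lower, with a median of 0.41, against 11.1% higher and 17.1% lower of all measured genes. The genes that mark cycling belong to this list, so that setting acts on the values it scores and decides nothing about direction. Mki67, the proliferation marker, had 55 UMIs in 6 ΔMAC members and 86 UMIs in 13 FL/FL members, and Ube2c had 68 UMIs in ΔMAC, 92.6% of them in 1 cell, and 81 in FL/FL.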

How the data were processed

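Liver non-parenchymal cells of 2 libraries were sequenced with 10x Chromium 3' reagents, 1 library per genotype. Raw UMI counts of each gene in each barcode were deposited, and per the file headers Cell Ranger 6.0.0 wrote them. Genome build mm10 and Seurat 4.3.0 are named per the submitters' processing notes, without a stated use. No barcode had fewer than 502 UMIs, so the counts had been filtered before deposition. Barcodes below 300 genes or with 20% or more mitochondrial UMIs were dropped, 72 in ΔMAC and 64 in FL/FL.

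Counts were summed over members of each library and divided by their total (CPM, per 1e+06 UMIs), with exact Poisson intervals, exact conditional intervals of ratios and exact Clopper-Pearson intervals of shares. The 95% intervals hold counting error alone and say nothing of animals or preparations. No test between genotypes was run. List genes with at least 20 UMIs were counted at 1.5-fold, and a gene at 0 had a floor of 3 counts. Levels were also compared after thinning members to 2000 UMIs. Gates for other cells rest on raw marker counts. The 12 highest and 12 lowest ratios were named among 1341 genes with at least 50 UMIs and 100 CPM, leaving out the rule's genes, mitochondrial, ribosomal, receptor-segment and unnamed genes, and those at over 10 times the cDC1 level in another gate (free RNA), which removed 9 genes that were 2-fold apart. List members named were those farthest from 0 with at least 50 UMIs; others were chosen after their values were seen. The members, lists and rule were chosen with earlier results of these data known. Single values of a few genes are not reported here. Free RNA was not subtracted and doublets (Scrublet in scanpy 1.11.5, expected rate 0.08) were marked but kept. Coordinates are from GENCODE M21 and promoter windows from RefSeq. The count scripts were tested on simulated data. Statistics used scipy 1.17.1 and numpy 2.4.6 in Python 3.11.15, tables pandas 2.3.3 and anndata 0.12.19, and plots matplotlib 3.10.9.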

Additional observations from a re-analysis of the deposited data

How the results depend on the processing

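With 1 library per genotype, no result here can be separated from differences between animals, preparations or days. Sums over 93 cells limit precision, and genes under 20 UMIs were not counted in lists. No paired analysis was possible because there is 1 library per genotype and no result comes from a test. Members with more cDC1 than cDC2 markers, a set chosen after seeing the data, left 39 ΔMAC and 19 FL/FL cells, a share ratio of 2.31 in place of 1.31. Applying the rule to all cells thinned to 1500 UMIs, with at least 3 H2-Ab1 UMIs, gave 13 ΔMAC and 23 FL/FL cells, a ratio of 0.657. The exclusions of the rule were also read on thinned counts there, so cells barred from the main gate could enter. Genes 2-fold apart, 57 over all members, numbered 86 among members with 2 or more Xcr1 and Clec9a UMIs, 93 without cycling members, 93 without mitochondrial and ribosomal protein genes in the total, and 17 after thinning members to 2000 UMIs. For the lists, the median log2 ratio of maturation genes was -0.35 with 2 or more UMIs and -0.23 with more cDC1 than cDC2 markers. That of cell cycle genes was -0.88 with 2 or more UMIs and 0.41 without cycling members, which are picked by genes of that same list. That of cDC1 identity genes was -0.38 without Cd209a-holding members and -0.45 with more cDC1 than cDC2 markers. The latter members are picked by genes of that same list, so that setting decides nothing about its direction. After thinning to 2000 UMIs, which leaves few measured genes, Pkm had a log2 ratio of -1.39, and the medians were 0.0336 for the type I interferon list, which turned its sign, 0.50 for the citric acid cycle, -0.50 for mitochondrially encoded, 0.22 for immediate early and heat shock and -1.15 for clock genes. With more cDC1 than cDC2 markers Zeb2 (1.41) and Fyb (0.41) turned their sign on the log2 scale, so 22 of 24 named genes kept their direction there, and 24 of 24 did in each other alternative. The causes were not tested. Choline, dead cell uptake, fatty acid oxidation, glucocorticoid, interferon gamma, pattern recognition and sterol lists had too few measured genes after thinning to give a value. Each result was counted once per setting. Of the other values so counted, 462 for counts, medians and shares and 303 for the 24 named genes stayed within counting error or 1.5 times. A further 31 values for the named genes moved without a change of sign.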

Other observations

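Some lists were not described above. Immediate early and heat shock genes, a sign of stress during dissociation, had 1 of 21 measured genes at least 1.5-fold higher in ΔMAC and 0 lower, with a median log2 ratio of -0.04. Fos was 2508 CPM in ΔMAC members and 2669 CPM in FL/FL members, and Jun 798 CPM in ΔMAC and 724 CPM in FL/FL. Citric acid cycle genes had 1 of 22 higher and 5 lower, with a median of -0.21. Integrated stress response genes had 0 of 9 higher and 3 lower, with a median of -0.33, among them Cebpb, a transcription factor of myeloid cells, at 244 CPM in ΔMAC and 459 CPM in FL/FL, a ratio of 0.532 (0.435 to 0.649). Clock and cold-inducible genes had 6 measured members, 1 higher and 1 lower, with a median of -0.31 that was -1.15 after thinning to 2000 UMIs. Of these Cirbp, a cold-inducible RNA-binding protein, had 40 UMIs in ΔMAC and 88 in FL/FL, a ratio of 0.406 (0.272 to 0.596).

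Receptors for homing were split, with 2 of 11 higher and 3 lower. Cx3cr1, the fractalkine receptor found on monocytes and some dendritic cells, had 6 UMIs in 5 ΔMAC members and 28 UMIs in 16 FL/FL members. Itga4, an integrin chain for entry into tissue, was 379 CPM in ΔMAC and 274 CPM in FL/FL, a ratio of 1.39 (1.13 to 1.70). Among lineage regulators outside the identity markers, Mycl, which supports cDC1 fitness, had 58 UMIs in 30 ΔMAC members and 26 UMIs in 17 FL/FL members, a ratio of 1.99 (1.23 to 3.29), and Bcl6 was 135 CPM in ΔMAC and 81.6 CPM in FL/FL, a ratio of 1.65 (1.15 to 2.40). Nfil3, which acts upstream of Batf3-dependent development, was 103 CPM in ΔMAC and 71.4 CPM in FL/FL over all members, and 124 CPM in ΔMAC and 49.5 CPM in FL/FL among members with 2 or more Xcr1 and Clec9a UMIs.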
